A study of Drosophila melanogaster and Drosophila simulans with 21 samples.

Results

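The genes RpL32, RpS10a, RpS12 and RpS28b encode proteins of the cytosolic ribosome, and they were the 4 such genes with a symbol on the arrays. They were found by the gene symbol that the platform annotation gives to a probe position, which named 15 of 6101 positions. RpL32 had 12 of these positions and the others 1 each. All 4 were among the 1384 named genes tested, and 251 of the 252 possible values of RpL32 and all 21 values of each other gene were present.

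Cytosolic ribosomes translate nuclear messenger RNA and consist of a small and a large subunit, each built from ribosomal RNA and one copy of most of its proteins. In Drosophila, losing 1 gene copy of many ribosomal proteins slows growth and gives the Minute phenotype of delayed development and short bristles. Messenger RNAs of these proteins are among the most abundant of most cells, and in females the germline makes large stocks of ribosomes for the egg. RpL32, a large subunit protein, was long called rp49 and is widely used as a reference gene in Drosophila expression work. RpS10a, RpS12 and RpS28b belong to the small subunit. RpS12 is known from cell competition, in which cells with fewer copies of a ribosomal protein gene are lost beside normal neighbours. In the Release 6 plus ISO1 MT gene table, RpL32 (CG7939) and RpS10a (CG12275) are on chromosome arm 3R, RpS12 (CG11271) is on 3L and RpS28b (CG2998) is on X. The same table lists the related genes RpS10b, RpS28a and RpS28-like. How far their RNA binds the RpS10a and RpS28b probes was not tested.

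RNA came from whole adult females of 3 kinds: the Canton S strain of D. melanogaster, the Sim-1 strain of D. simulans, and F1 hybrids from Canton S mothers and Sim-1 fathers. All stocks were kept at 25 C, all crosses were made at 18 C, and females (virgins, for the parental kinds) were kept at room temperature for 5 to 6 days before freezing within the same 2 hours of the day. Extractions of 2 cohorts were mixed into 1 RNA pool per kind, so every array of a kind carries the same pool. A p-value below therefore describes the spread between arrays, and a difference of kinds cannot be told apart from a difference of pools. Spotted cDNA arrays compared 2 labelled cDNAs at a time, on 6 arrays per RNA pair with 3 in each channel orientation. A further 3 arrays carried 1 RNA in both channels. Whole bodies were used, so fewer cells of a type and less RNA per cell cannot be told apart.

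Values are log2 ratios with the median of each array subtracted, so that 0 stands for the typical feature of that array. The numerator of the deposited ratios is not named in the labels. Channel 1 over channel 2 was adopted from earlier results of these data, and if the ratio is the inverse, every "higher" below is a "lower" and every sign turns. Sizes, calls and the relation of the members to each other would stay. Each array held values for 4657 to 4946 positions. Precision is limited by how many arrays there are. The array titles carry numbers from 1 to 8 or from 14 to 18, and values are also given within these 2 ranges. Of the 10 title numbers of arrays with 2 RNAs, 8 stood on 2 arrays each, mostly of the same RNA pair. The p-values take arrays as independent. With title number as a random block, a choice made after seeing the data, the consensus correlation was 0.47 with all ratios turned to one RNA direction and 0.16 in channel direction, and 1 call of the members was lost, as given below.

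RpL32 was read at 12 positions on each array, except for 11 on the self-self array of D. melanogaster RNA, which gave its technical spread within an array. On the self-self arrays the position means were 0.23 for hybrid RNA, 0.38 for D. melanogaster RNA and 0.29 for D. simulans RNA. All 3 lay above 0, although both channels held the same RNA. The value of D. melanogaster RNA exceeded 94.3% of all absolute values on its array. RpS12 had self-self values of -0.015, -0.22 and -0.18 in the same order, all below 0. RpS10a gave -0.23, 0.15 and 0.13, and RpS28b gave -0.037, 0.26 and 0.22. For these the hybrid array had the opposite sign of both parental arrays. The hybrid array had title number 8 and both parental arrays 14, so kind of RNA and title number cannot be told apart here.

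The offset returned on arrays with 2 RNAs. The fitted channel term, the part of the log2 ratio that follows the channel and not the RNA, was 0.27 ± 0.059 (SE) for RpL32 and -0.21 ± 0.045 for RpS12. For RpS10a it was -0.15 ± 0.055 and for RpS28b 0.076 ± 0.074. Over all features its median absolute value was 0.081. RpL32 and RpS12 thus had channel terms about as large as their differences between RNAs, with opposite signs. The balanced orientations remove this term from each contrast if it is the same on all arrays. Within each range of title numbers, the orientations were not balanced for any RNA pair. With a channel term for each title range, RpS10a in hybrid minus D. melanogaster moved from -0.15 (limma, adjusted p = 0.0814) to -0.21 (adjusted p = 0.0170). The calls of RpL32 and RpS12 stayed. The array values of single genes below are given with the common fitted channel term removed.

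**Figure D1:**
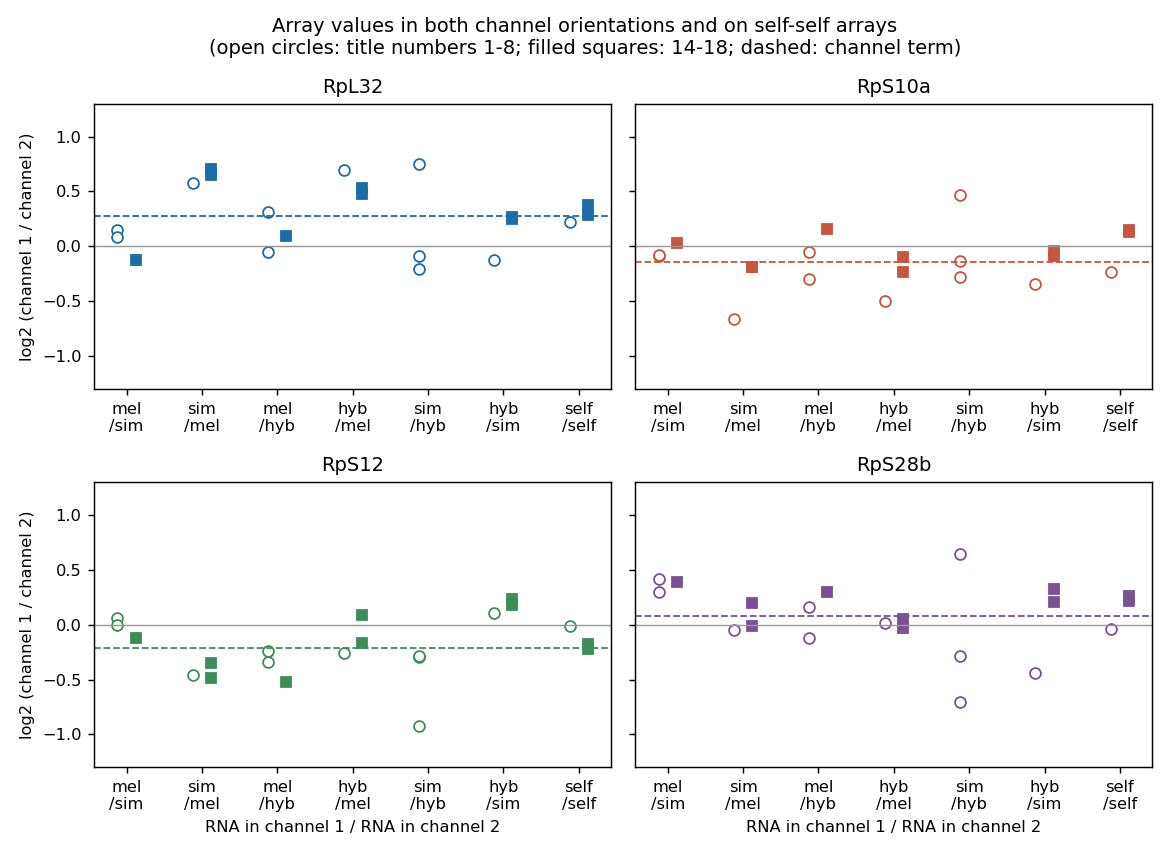
Centred log2 ratio of channel 1 over channel 2 for each of the 4 genes, by the RNA in each channel, with 1 point per array (mel, D. melanogaster; sim, D. simulans; hyb, hybrid). The dashed line is the fitted channel term, at 0.27 for RpL32 and -0.21 for RpS12. RpL32 lies higher with D. simulans over D. melanogaster than in the inverse orientation, and the self-self arrays of RpL32 lie near its dashed line.

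The 12 RpL32 positions lay close together on the 10 arrays with title numbers 14 to 18, where their SD on an array was 0.034 to 0.10 with a median of 0.061. On the 11 arrays with title numbers 1 to 8 it was 0.074 to 0.52 with a median of 0.22. The widest was the third array of D. simulans against hybrid RNA (title number 4). There, the 3 positions whose ID begins with 4, 8 or 12 ran from -0.21 to 5.53e-05 and the other 9 from 0.66 to 1.23, without overlap. Subtracting the median of all positions with the same first ID number (an alternative chosen after seeing the data) gave a largest SD of 0.36, on another array. It raised the SD on 3 of the 11 arrays with title numbers 1 to 8 and on 6 of the 10 with 14 to 18, where the largest became 0.15.

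**Figure D2:**
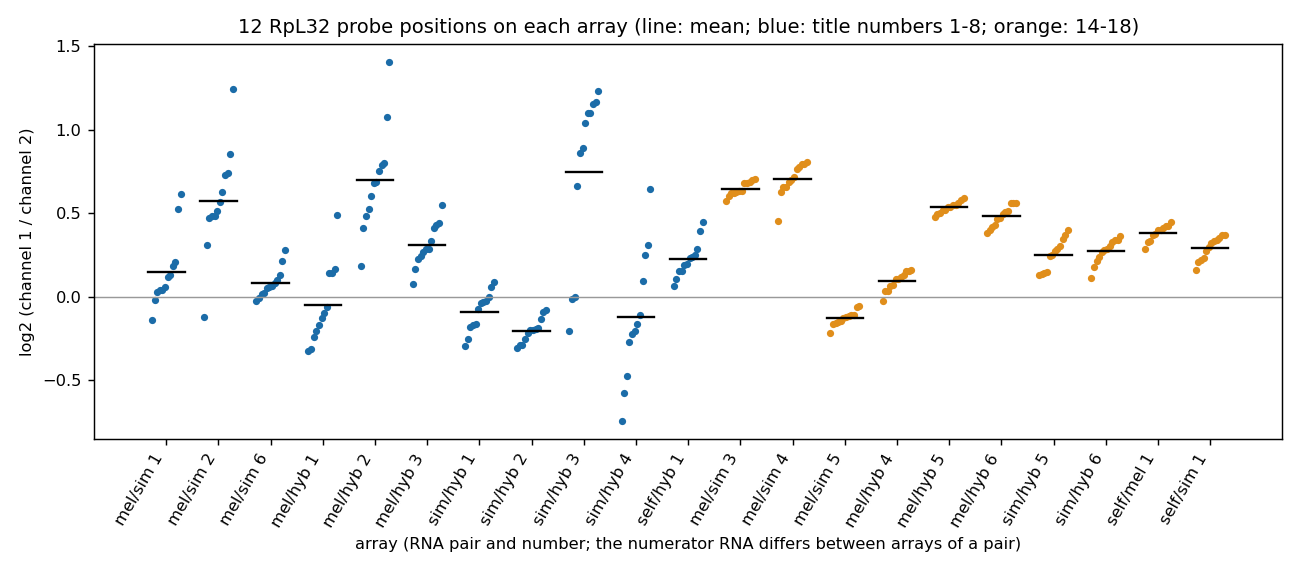
Centred log2 ratio of channel 1 over channel 2 at the 12 RpL32 positions on all 21 arrays (11 on the D. melanogaster self-self array), with the array mean as a line. Arrays with title numbers 14 to 18 (orange) have an SD of at most 0.10 between positions, and those with numbers 1 to 8 (blue) reach 0.52.

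Between the parental species, RpL32 was higher and RpS12 lower in D. simulans than in D. melanogaster, by 1.22-fold and 1.15-fold, while the other small subunit genes RpS10a and RpS28b did not pass the test. The comparison asks how the RNA levels of the parental species differ. Whether cDNA of the 2 species binds these probes equally well was not tested, here or in the hybrid contrasts. The 2 calls among 4 members compare with 46.8% of all 4753 features called in this contrast, so the share is near the background. By direction, 23.2% of features were called higher and 23.5% lower.

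The 6 arrays of D. simulans against D. melanogaster gave RpL32 differences from 0.13 to 0.43 with a median of 0.34. All 6 were above 0 with the channel term removed, and their mean was 0.30 ± 0.12 (SD, n = 6). Before its removal the mean was the same, the SD was 0.38, and the first and sixth arrays stood at -0.15 and -0.081. The fit over 18 arrays gave 0.28 ± 0.084 (SE), a 1.22-fold difference with a 95% interval of 1.08 to 1.37 (limma, adjusted p = 0.00956). With title numbers 1 to 8 alone the value was 0.22 (adjusted p = 0.282) and with 14 to 18 alone 0.35 (adjusted p = 1.22e-04). Without a channel term in the model the value was the same and the limma adjusted p was 0.0616.

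Taken singly, the 12 RpL32 positions had fitted differences from 0.18 to 0.36 with a median of 0.28. All 12 were above 0 and 9 passed the limma test adjusted over all positions. Positions of 1 gene on the same arrays share their RNA and hybridisation and are not replicates.

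For RpS12 the 6 arrays ran from -0.28 to -0.091 with a median of -0.23. All 6 were below 0 with the channel term removed, and their mean was -0.21 ± 0.077 (SD). Before its removal the SD was 0.26 and the fifth array stood at 0.12. The fit gave -0.21 ± 0.063 (SE), a 1.15-fold lower level in D. simulans (limma, adjusted p = 0.0110). The value was -0.25 (adjusted p = 0.0891) within title numbers 1 to 8 and -0.17 (adjusted p = 0.0149) within 14 to 18. Without a channel term the adjusted p was 0.0727. With title number as a random block and the ratios turned to one RNA direction, a fit chosen after seeing the data, it was -0.20 (adjusted p = 0.0610).

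RpS10a ran from -0.51 to -0.043 with a median of -0.063 on the same arrays. All 6 values were below 0, but the lowest, on the second array, lay well apart from the rest. Before removal of the channel term, the first and sixth arrays stood at 0.090 and 0.075. The fit gave -0.11 ± 0.078 (limma, adjusted p = 0.273), with a 95% interval from 0.829-fold to 1.04-fold. RpS28b ran from -0.34 to 0.12 with a median of -0.17, and 5 of 6 arrays were below 0. Its fit gave -0.15 ± 0.10 (limma, adjusted p = 0.259), with an interval from 0.776-fold to 1.05-fold. Both genes passed within title numbers 14 to 18, at -0.12 (adjusted p = 0.0225) for RpS10a and -0.16 (adjusted p = 0.0207) for RpS28b. Within 1 to 8 they stood at -0.13 (adjusted p = 0.475) and -0.16 (adjusted p = 0.520). Without both arrays of title number 4 (chosen after seeing the data), RpS10a stood at -0.16 (adjusted p = 0.0399) and RpS28b at -0.24 (adjusted p = 0.0133).

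**Figure D3:**
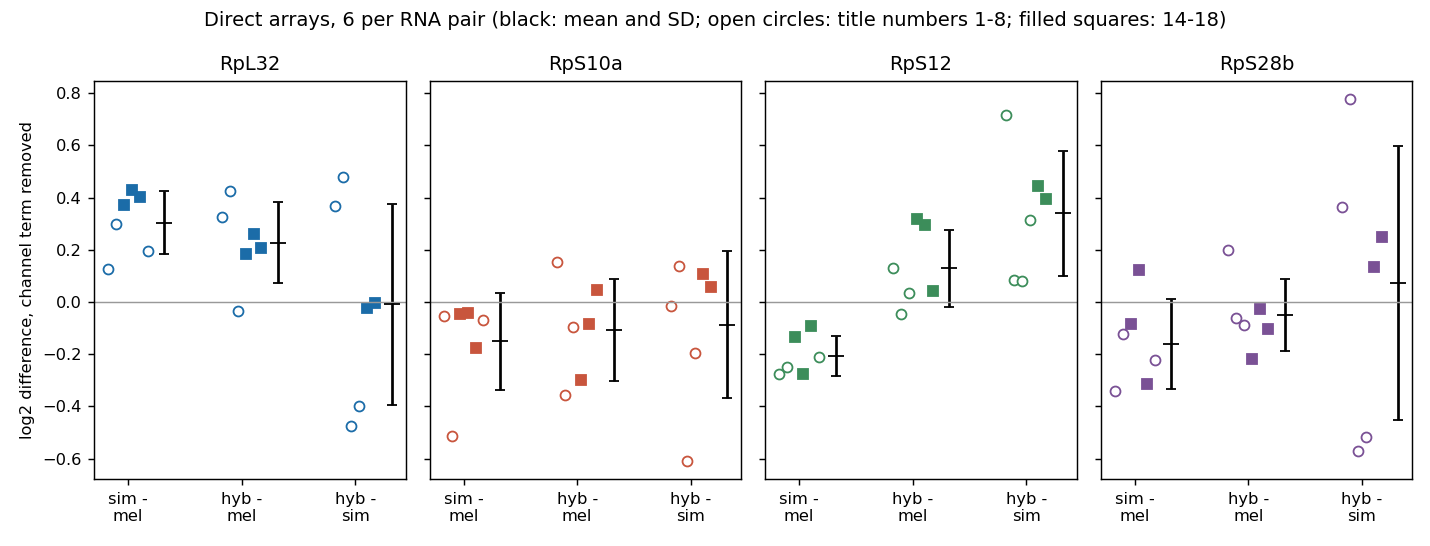
Log2 difference on each of the 6 arrays of an RNA pair after removal of the fitted channel term, for the 4 genes, with mean and SD in black. All RpL32 values of D. simulans minus D. melanogaster are above 0 and all RpS12 values below 0. Hybrid minus D. simulans spreads most, with SDs up to 0.52.

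Hybrid females had more RpL32 RNA than D. melanogaster, by 1.19-fold, and RpS10a, RpS12 and RpS28b did not pass the test in this comparison, which asks how the hybrid level relates to the maternal species. The 1 call among 4 members stands against 83.8% of all features called, with 42.0% higher and 41.8% lower. The median absolute difference was 0.67 over all features, and the 4 members had 0.25, 0.15, 0.13 and 0.062.

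RpL32 ran from -0.035 to 0.42 on the 6 arrays with a median of 0.23. On 5 of 6 arrays the hybrid was higher. The mean was 0.23 ± 0.16 (SD), and the fit gave 0.25 ± 0.084 (SE), which is 1.19-fold with a 95% interval of 1.05 to 1.34 (limma, adjusted p = 0.00960). The difference exceeded the absolute difference of 19.1% of features in this contrast. It was 0.21 (adjusted p = 0.237) within title numbers 1 to 8 and 0.24 (adjusted p = 8.15e-04) within 14 to 18. With the medians of the arrays left as deposited the value was 0.14 (adjusted p = 0.0820), and without a channel term its adjusted p was 0.0582.

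The single RpL32 positions ran from 0.15 to 0.39, with all 12 above 0 and 6 called.

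RpS12 ran from -0.046 to 0.32 on these arrays with a median of 0.086, and 5 of 6 were above 0. The fit gave 0.13 ± 0.063 (limma, adjusted p = 0.0636), with a 95% interval from 0.998-fold to 1.20-fold. Its value differed between the title ranges, with 0.035 (adjusted p = 0.792) in 1 to 8 and 0.26 (adjusted p = 0.00192) in 14 to 18. Whether these ranges differ was not tested. Leaving out 1 array brought RpS12 past the threshold in 3 of 18 cases, as for the second array of this pair (0.15, adjusted p = 0.0387) and the second and the third array of D. simulans against hybrid RNA (0.15 each, adjusted p = 0.0355 and 0.0272).

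RpS10a ran from -0.36 to 0.15 with a median of -0.090, and 4 of 6 arrays were below 0. The fit gave -0.15 ± 0.078 (limma, adjusted p = 0.0814) and an interval from 0.805-fold to 1.01-fold. Within title numbers 1 to 8 it was -0.26 (adjusted p = 0.0959), and within 14 to 18 it was -0.15 (adjusted p = 0.0108). With deposited medians it reached -0.25 (adjusted p = 0.00129), and without the first array of this pair -0.19 (adjusted p = 0.0367). RpS28b ran from -0.22 to 0.20 with a median of -0.073, and 5 of 6 arrays were below 0. Its fit gave -0.062 ± 0.10 (limma, adjusted p = 0.580), with an interval from 0.823-fold to 1.11-fold. Within title numbers 14 to 18 alone it stood at -0.14 (adjusted p = 0.0390).

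Against the paternal species D. simulans, hybrid females had more RpS12 RNA, by 1.26-fold, and RpL32, RpS10a and RpS28b did not pass. Here 1 of 4 members was called, against 82.2% of all features, 41.5% higher and 40.8% lower. The median absolute difference was 0.61 over all features.

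RpS12 ran from 0.079 to 0.72 on the 6 arrays with a median of 0.35. All 6 were above 0, and their mean was 0.34 ± 0.24 (SD). The fit gave 0.34 ± 0.063 (SE), which is 1.26-fold with a 95% interval of 1.15 to 1.38 (limma, adjusted p = 6.18e-05). This was the only member contrast that passed under every alternative tried with a test, with values from 0.21 to 0.43. It was 0.29 (adjusted p = 0.0231) within title numbers 1 to 8 and 0.43 (adjusted p = 1.10e-04) within 14 to 18. The RpS12 difference exceeded that of 29.0% of features.

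RpL32 ran from -0.47 to 0.48 with a median of -0.013, with 2 arrays above 0 and 4 below. The fit gave -0.031 ± 0.084 (limma, adjusted p = 0.736), with an interval from 0.867-fold to 1.10-fold. The arrays differed by title number: both of number 1 lay at 0.37 and 0.48, both of number 4 at -0.47 and -0.40, and both of number 17 at -0.023 and -0.0042. Of the 12 positions, 7 were above 0 and 0 passed the limma test.

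RpS28b had the same order of arrays and ran from -0.57 to 0.78 with a median of 0.19. Both arrays of title number 1 were highest, at 0.37 and 0.78, and both of number 4 lowest, at -0.57 and -0.52. The fit gave 0.085 ± 0.10 (limma, adjusted p = 0.457). Without both arrays of title number 4 it was 0.26 (adjusted p = 0.00635). RpS10a ran from -0.61 to 0.14 with a median of 0.021, 3 arrays on each side of 0. Its fit gave -0.043 ± 0.078 (limma, adjusted p = 0.619), with an interval from 0.867-fold to 1.09-fold.

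**Figure D4:**
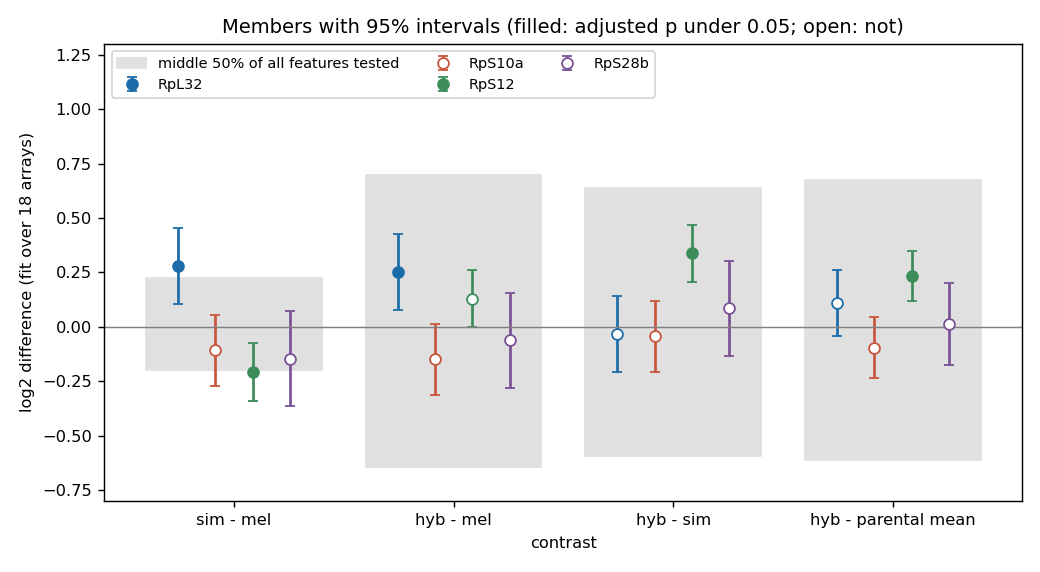
Fitted log2 differences of the 4 genes in 4 contrasts with 95% intervals, filled where the adjusted p is under 0.05. The grey bands run between the quartiles of all features tested. RpL32 and RpS12 are called in the parental contrast in opposite directions, RpL32 against D. melanogaster and RpS12 against D. simulans and the parental mean.

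Relative to the mean of both parental log2 levels, RpS12 was higher in the hybrid and the other 3 genes did not pass. The 1 call among 4 members stands against 85.3% of features called, 43.0% higher and 42.3% lower. RpS12 stood at 0.23 ± 0.055 (SE; limma, adjusted p = 5.71e-04), RpL32 at 0.11 ± 0.072 (adjusted p = 0.164), RpS28b at 0.012 ± 0.090 (adjusted p = 0.907) and RpS10a at -0.096 ± 0.068 (adjusted p = 0.189). The size of these values exceeded that of 18.9%, 9.36%, 1.09% and 8.42% of features, and the median absolute value over all features was 0.64. The RpS12 value was 0.16 (adjusted p = 0.135) within title numbers 1 to 8 and 0.35 (adjusted p = 1.88e-04) within 14 to 18. With deposited medians the median over all features moved from 0.023 to -0.095, and RpS12 then stood at 0.12 (adjusted p = 0.0454). RpL32 passed without both arrays of title number 4, at 0.20 (adjusted p = 0.00964), and without the third array of D. simulans against hybrid RNA alone, at 0.15 (adjusted p = 0.0436).

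By the limma calls, 0 of 4 members lay outside both parents, against 72.2% of all features (36.0% above and 36.2% below), and the count was also 0 with unadjusted p. No other tool was run. From low to high, the order of the RpL32 levels was D. melanogaster, hybrid, D. simulans, where the upper pair of neighbours did not differ beyond the spread of arrays. For RpS12 it was D. simulans, D. melanogaster, hybrid, and D. melanogaster and hybrid did not differ beyond it. For RpS10a it was hybrid, D. simulans, D. melanogaster and for RpS28b D. simulans, hybrid, D. melanogaster, with no called step. One member lay outside both parents in 7 other settings: RpS12 above both with array weights, with title numbers 14 to 18, without both arrays of title number 4 and without 3 single arrays, and RpS10a below both with deposited medians.

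The 3 RNA pairs can be set against each other, since D. simulans minus D. melanogaster plus hybrid minus D. simulans should equal hybrid minus D. melanogaster. From the direct array means, this sum exceeded the direct value by 0.067 for RpL32 and by 0.0041 for RpS12. It lay below the direct value for RpS10a and RpS28b, with differences of -0.13 and -0.038. The gap for RpS10a was thus about as large as its fitted differences from D. melanogaster (-0.11 for D. simulans and -0.15 for the hybrid). It was larger than that of hybrid minus D. simulans (-0.043).

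Differences between members on the same array do not depend on a value subtracted from the whole array, such as its median. Centring within the first ID number can change them. In D. simulans minus D. melanogaster, RpL32 exceeded RpS28b by 0.46 ± 0.18 (SD), with all 6 arrays on 1 side (exact sign-flip permutation test, two-sided p = 0.03125, the smallest that 6 arrays allow; adjusted p = 0.281 over 18 tests). RpL32 exceeded RpS12 by 0.51 ± 0.62 and RpS10a by 0.45 ± 0.61, each on 4 of 6 arrays. In hybrid minus D. simulans, RpS10a lay below RpS12 on all 6 arrays, with a difference of -0.43 ± 0.30 (exact permutation p = 0.03125, adjusted p = 0.281). None of the 18 tests passed after adjustment. Passing would have needed most of the 18 tests to reach the smallest p, so this outcome decides nothing about a single difference. The differences given hold the channel terms, and the tests take the 6 arrays as independent although arrays share title numbers. With the channel terms removed first, also a later choice, RpL32 exceeded each small subunit gene on 6 of 6 arrays in the parental pair, by 0.51 ± 0.11 for RpS12, 0.46 ± 0.14 for RpS28b and 0.45 ± 0.23 for RpS10a (exact permutation adjusted p = 0.1125 each). RpS10a then lay below RpS12 in hybrid minus D. simulans on 5 of 6 arrays, with a highest value of 0.053 (exact permutation p = 0.0625, adjusted p = 0.1875). In hybrid minus D. melanogaster, RpL32 exceeded RpS10a by 0.33 ± 0.27 and RpS28b by 0.28 ± 0.16 on 6 of 6 arrays (exact permutation adjusted p = 0.1125 each). None of these passed after adjustment, and the same limit of the test holds.

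Since RpL32 is in use as a reference gene, the other members were also set against it by centring each array on its RpL32 mean. In D. simulans minus D. melanogaster the log2 differences then became -0.39 for RpS10a (limma, adjusted p = 0.00234), -0.49 for RpS12 (adjusted p = 3.47e-04) and -0.43 for RpS28b (adjusted p = 1.60e-04). In hybrid minus D. melanogaster they became -0.40 for RpS10a (adjusted p = 7.69e-04), -0.31 for RpS28b (adjusted p = 0.00133) and -0.12 for RpS12 (adjusted p = 0.270). The RpS12 value had the opposite sign of its median-centred value of 0.13. In hybrid minus D. simulans RpS12 stood at 0.37 (adjusted p = 0.00197), and against the parental mean at 0.12 (adjusted p = 0.185). Relative to RpL32 the median of all features moved from 0.021 to -0.26 between the parents and from 0.022 to -0.23 in hybrid minus D. melanogaster. Each value thus also holds the difference of RpL32 itself. The share of all features called with this centring is not given, so these calls are not a result about the members. The limma fit pools all RNA pairs. On the parental pair alone, the exact permutation test passed for none of the 3 genes against RpL32. Its adjusted p was 0.45 for RpS10a and RpS12 and 0.281 for RpS28b, or 0.1125 each with channel terms removed.

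Over the 18 arrays with 2 RNAs, Pearson's r between the ratios of members was 0.63 for RpS10a with RpS28b and 0.40 for RpL32 with RpS28b, and ran from -0.038 to 0.24 for the other 4 pairs. The named genes with the highest r were CG13847 (0.91, 18 arrays) and lap (0.87, 17 arrays) for RpL32, RhoGDI (0.87, 18 arrays) and RhoBTB (0.85, 17 arrays) for RpS10a, PhKgamma (0.88, 17 arrays) and Cals (0.86, 18 arrays) for RpS12, and thoc5 (0.75, 18 arrays) and Isha (0.71, 18 arrays) for RpS28b. These values share the arrays, their channel orientation and their centring, and they are descriptions. CG13847 had fitted differences of 0.37 in D. simulans minus D. melanogaster and 0.32 in hybrid minus D. melanogaster, near those of RpL32. Cals had -0.84 and 1.43 where RpS12 had -0.21 and 0.34, in D. simulans minus D. melanogaster and hybrid minus D. simulans.

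Both measured genes of mitochondrial ribosomal proteins, mRpL16 and mRpL54 of the large subunit, were lower in the hybrid than the parental mean. Their log2 differences were -1.15 ± 0.088 (SE) and -0.84 ± 0.077 (limma, adjusted p = 1.63e-10 and 3.29e-09), where 42.3% of all features were lower. Both were also lower than in D. melanogaster, at -1.46 and -1.01, and than in D. simulans, at -0.85 and -0.67. Of all features, 41.8% and 40.8% were lower in these contrasts. Against the parental mean the list median was -0.995, and that over all features 0.023.

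Among 9 tested translation factors, 3 were lower than the parental mean, 0 higher, and the list median was -0.025. Of all features, 42.3% were lower and 43.0% higher. The 3 were eRF1, the release factor that ends translation at stop codons, at -0.92 (adjusted p = 4.67e-12), eIF2Bepsilon, a subunit of the exchange factor of eIF2, at -0.53 (adjusted p = 1.46e-05), and eIF3j, a subunit of initiation factor eIF3, at -0.24 (adjusted p = 0.00443). The other 6 lay between -0.096 and 0.0999.

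All 5 tested genes of ribosome biogenesis passed, 3 lower and 2 higher, with a list median of -0.56, and 85.3% of all features passed in this contrast. Nop60B, the pseudouridine synthase of ribosomal RNA, stood at -1.63 (adjusted p = 4.10e-15), the nucleolar gene Nnp-1 at -1.49 (adjusted p = 1.50e-12) and the exosome nuclease gene Dis3 at -0.56 (adjusted p = 3.00e-08). The nucleolar GTPase gene Non1 stood at 0.44 (adjusted p = 1.11e-04) and Nop17l at 0.25 (adjusted p = 3.96e-04). Nop17l stood at 0.090 (adjusted p = 0.242) with centring within the first ID number and at 0.14 (adjusted p = 0.0778) relative to RpL32.

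Of 8 tested genes of growth signalling, 5 were higher and 2 lower, with a median of 0.19, again near the 85.3% of all features. By size of difference these were led by S6KL, a kinase gene related to S6 kinase, at -2.60 (adjusted p = 5.49e-17) and crc, the Drosophila ATF4, at 1.06 (adjusted p = 1.19e-11). The growth inhibitor gene Tsc1 stood at -0.51 (adjusted p = 8.09e-05), the forkhead factor gene foxo of insulin signalling at 0.33 (adjusted p = 1.01e-04) and chico, the insulin receptor substrate, at 0.31 (adjusted p = 4.55e-04). The calls of 2 other genes, named here after their values were seen, Max at 0.21 (adjusted p = 0.00355) and REPTOR at 0.18 (adjusted p = 0.0273), were lost under each of 4 other scalings. Of the listed genes in use as references besides RpL32, 2 were tested and both were lower, where 42.3% of all features were lower. CycK (cyclin K) stood at -0.83 (limma, adjusted p = 3.15e-12) and Cyp1 (a cyclophilin) at -0.49 (adjusted p = 2.10e-06). Every gene named in these lists kept its sign against the parental mean with deposited medians, with a common spread, with centring within the first ID number and relative to RpL32.

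**Figure D5:**
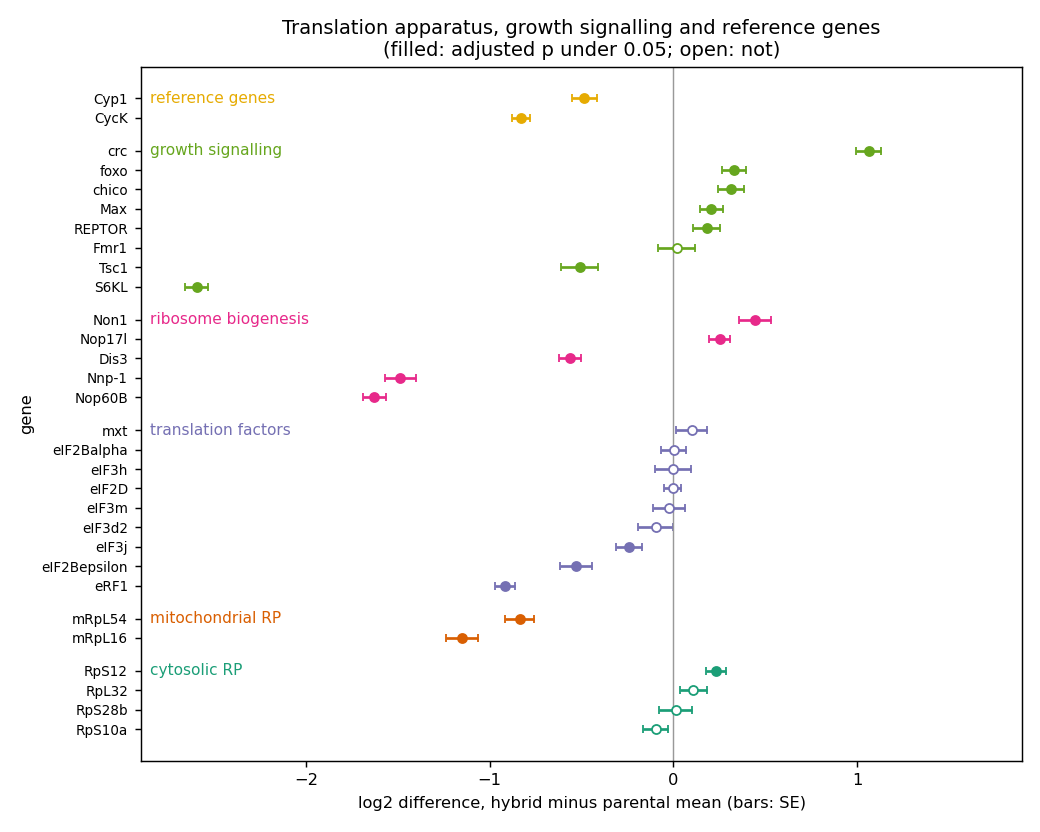
Log2 difference of hybrid minus parental mean with SE for every tested gene of 6 lists, filled where the adjusted p is under 0.05. The cytosolic ribosomal protein genes lie between -0.096 and 0.23, and both mitochondrial ones at -0.84 or below.

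Genes listed as tissue markers moved with the hybrid contrasts in which these values were taken. Of 6 tested germline genes (BigH1, c(3)G, Fs(2)Ket, mei-P26, ovo and zuc), 4 were lower than the parental mean, with a median of -0.75, where 42.3% of all features were lower. All 4 tested genes of the fat body list were higher, with a median of 2.00: apolpp (2.75), FASN1 (2.04), regucalcin (1.96) and fbp (1.39). Of these, fbp is a different gene from the listed Fbp1, which was not tested, and how far it marks the fat body was not examined. All 4 muscle genes (Prm, Strn-Mlck, up and Zasp66) were higher, with a median of 1.07, where 43.0% of all features were higher. Their part in the values of the ribosomal protein genes was not tested.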

How the data were processed

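Whole adult females were compared on 21 spotted 2-colour cDNA arrays: 18 with 2 different RNAs and 3 self-self arrays. The authors deposited linear ratios, 1 for each position on each array. Background correction, normalization and the numerator were not found in the labels or file headers, and channel intensities were not used here. Deposited array medians ran from 0.852 to 1.11, and 1145 positions held no value.

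Ratios were put on the log2 scale and each array's median was subtracted. Positions with the same single symbol were averaged per gene, and a feature was tested with at least 4 of 6 values in each RNA pair, which left 4753. Symbols were updated through the Release 6 plus ISO1 MT gene table, whose coordinates are not used since the files name no build.

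All 18 arrays entered 1 model in limma 3.58.1 (R 4.3.3) with coefficients for D. simulans and hybrid RNA and a channel term, with two-sided moderated tests, Benjamini-Hochberg adjustment over all features and a threshold of 0.05. The script was tested on simulated data whose noise was independent between arrays. That test does not cover effects shared by arrays of a title number. RpL32 positions were fitted singly in the same model. Member differences within an array used an exact sign-flip test over 6 arrays. Genes of the lists of translation, growth and references were named if the list had at most 5 tested genes, otherwise the 5 largest called against the parental mean. Tissue markers, Max and REPTOR were named outside this rule. For likeness, the 2 named genes with the highest r over at least 16 arrays were taken. Members, lists and tests were chosen with earlier results of these data known. Alternatives changed centring, scaling, channel term, filter, weights, arrays and positions, and set title number as a random block.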

Additional observations from a re-analysis of the deposited data

Results flagged for a closer look

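The RpS10a difference on the second array of D. simulans against D. melanogaster RNA was -0.51, while the other 5 arrays of that pair lay between -0.18 and -0.043. The gap made up 0.715 of the whole range of the 6 arrays, above the 95% critical value of Dixon's test. Chance alone gives such a gap in about 1 of 20 groups, and 12 groups were looked at.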

How the results depend on the processing

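The RpS12 difference of hybrid minus D. simulans kept its sign and its call under every alternative with a test. Over 17 settings that changed centring, scaling, channel term, filter, weights, block or sets of arrays, 212 of 264 values of the 4 genes kept both, 10 lost their call, 24 gained one and 18 changed sign. The cause was not tested. With deposited medians, RpL32 stood at 0.14 in hybrid minus D. melanogaster and at -0.0063 against the parental mean, RpS10a at -0.25, -0.17 and -0.21 in hybrid minus D. melanogaster, D. simulans and the parental mean, and RpS28b at -0.041 and -0.10 in the last 2 of these. Scaling to a common spread gave 0.0034 for RpS10a in hybrid minus D. simulans and -0.0073 for RpS28b against the parental mean. With no channel term, RpL32 at 0.28 and 0.25 and RpS12 at -0.21 lost their calls against D. melanogaster through a larger residual spread at equal values. Title numbers 1 to 8, with 10 arrays, gave 0.22 and 0.21 for RpL32 and -0.25 for RpS12 in the same contrasts, and 0.16 for RpS12 and -0.040 for RpS28b against the parental mean. Title numbers 14 to 18, with 8 arrays, gave -0.12 and -0.15 for RpS10a and -0.16 and -0.14 for RpS28b in D. simulans and hybrid minus D. melanogaster, 0.26 for RpS12 in the latter, and -0.059 for RpS28b against the parental mean. A channel term for each title range gave -0.21 and -0.15 for RpS10a in hybrid minus D. melanogaster and against the parental mean, and -0.047 for RpS28b in the latter.

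With array weights, RpS10a stood at -0.084 and RpS28b at -0.12 in D. simulans minus D. melanogaster, RpS12 at 0.19 in hybrid minus D. melanogaster and RpS10a at 0.027 in hybrid minus D. simulans, and 3449 in place of 2223 features were called between the parents. Relative to RpL32, RpS10a stood at -0.39, -0.40 and -0.21 in D. simulans minus D. melanogaster, hybrid minus D. melanogaster and against the parental mean, RpS28b at -0.43, -0.31 and -0.098, and RpS12 at -0.12 and 0.12 in the last 2. As a setting added after seeing the data, centring within the first ID number gave 0.074 and 0.023 for RpS10a in hybrid minus D. simulans and against the parental mean, and 0.0076 and 0.20 for RpS28b in hybrid minus D. melanogaster and D. simulans. Without both arrays of title number 4, also added later, RpL32 stood at 0.084 in hybrid minus D. simulans and 0.20 against the parental mean, RpS10a at -0.16 in D. simulans minus D. melanogaster and 0.060 in hybrid minus D. simulans, RpS12 at 0.15 in hybrid minus D. melanogaster, and RpS28b at -0.24, 0.028 and 0.26 in D. simulans minus D. melanogaster and hybrid minus D. melanogaster and D. simulans. With title number as a random block, also added later, RpS12 stood at -0.20 in D. simulans minus D. melanogaster with ratios turned to one RNA direction and lost its call, and RpS28b at -0.020 against the parental mean with ratios in channel direction. The count of members outside both parents was 1 with deposited medians, array weights, title numbers 14 to 18 or without the arrays of title number 4, and 0 to 1 with single arrays left out.

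Of the 12 RpL32 positions taken alone, those not called stood at 0.18, 0.25 and 0.26 in D. simulans minus D. melanogaster and at 0.15, 0.18, 0.18, 0.19, 0.19 and 0.19 in hybrid minus D. melanogaster. In hybrid minus D. simulans, positions of the opposite sign stood at 5.73e-05, 0.0037, 0.025, 0.029, 0.034, 0.072 and 0.0997, and against the parental mean 1 stood at -0.027 and those called at 0.17, 0.19, 0.20 and 0.24. In hybrid minus D. simulans, RpL32 minus RpS10a was -0.014, -0.076, -0.083 and -0.14 at 4 positions, and RpL32 minus RpS28b was 0.0060, 0.047, 0.068 and 0.087 at 4.

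With each of 18 arrays left out in turn, 275 of 288 values of the 4 genes kept sign and call, 5 gained a call, 8 changed sign and no call was lost. RpL32 ran from -0.099 to 0.028 in hybrid minus D. simulans and from 0.058 to 0.15 against the parental mean. RpS10a ran from -0.19 to -0.11 in hybrid minus D. melanogaster and from -0.070 to 0.033 in hybrid minus D. simulans. RpS12 ran from 0.10 to 0.15 in hybrid minus D. melanogaster. RpS28b ran from -0.0072 to 0.17 in hybrid minus D. simulans and from -0.058 to 0.077 against the parental mean. Of the differences between members, RpL32 minus RpS12 ran from -0.073 to 0.24 and RpS10a minus RpS28b from -0.11 to 0.036 in hybrid minus D. melanogaster, RpL32 minus RpS28b from -0.16 to 0.0018 in hybrid minus D. simulans, and RpS10a minus RpS28b from -0.091 to 0.13 and RpS12 minus RpS28b from -0.16 to 0.082 in D. simulans minus D. melanogaster. No paired analysis was possible because the replicate numbers only follow the order of the arrays and pair nothing. Signal over background could not be examined, since the values are ratios.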
